A study of Mus musculus with 4 samples.

Results

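The Ifi200 family of the mouse is a cluster of interferon-inducible genes on chromosome 1 whose proteins carry HIN domains that bind DNA and, in many members, a pyrin domain. The 9 genes described here, Ifi203, Ifi204, Ifi205, Ifi206, Ifi207, Ifi209, Ifi211, Ifi213 and Mndal, were chosen by name among the 32285 genes of the count matrices, and all 9 were present in each of the 4 libraries. They were followed across gated cell classes, organs and genotypes in single-cell RNA-seq of immune cells from mice carrying B16-F10 melanoma, a transplantable C57BL/6 tumour line. KO denotes Ndufa4-deficient mice and WT denotes wild-type mice. Ndufa4 encodes a subunit associated with complex IV of the mitochondrial respiratory chain.

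All groups were male C57BL/6 mice, 8 weeks old, sampled on day 18 after subcutaneous implantation of the melanoma cells. For each genotype there was 1 library of sorted CD45+ cells from the tumour and 1 library of sorted CD45+ CD11b+ cells from the spleen. Each library pooled equal cell numbers from 3 mice per genotype by the series design, or up to 4 by the extraction protocol, with 16000 cells loaded per lane. No label names a promoter or a cell type for the deletion. With 1 pooled library per group there is no replicate check, so every interval below covers counting error only and no test between genotypes was possible.

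HIN domain proteins are known as sensors of DNA and as regulators of transcription and growth in myeloid and lymphoid cells. Type I interferons act through transcription factors that bind interferon-stimulated response elements, and many genes of the family are transcribed more when those factors are active. Ifi204 (p204) is known in mouse macrophages as a cytosolic DNA sensor that signals through STING, and Aim2, encoded near the cluster, assembles an inflammasome on DNA.

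The family lay between positions 173468485 and 174031810 of chromosome 1 in GRCm38, a span of 563 kb, and each member was annotated as protein coding. Ifi206 (ENSMUSG00000037849), Ifi213 (ENSMUSG00000073491), Ifi207 (ENSMUSG00000073490), Ifi204 (ENSMUSG00000073489), Mndal (ENSMUSG00000090272), Ifi211 (ENSMUSG00000026536), Ifi203 (ENSMUSG00000039997) and Ifi205 (ENSMUSG00000054203) are on the minus strand, and Ifi209 (ENSMUSG00000043263) is on the plus strand. The annotated body of Mndal, from 173849126 to 173942491, covers Ifi211 and overlaps Ifi203 on the same strand, and Mndal shares 37 exon bases with Ifi203. Because the assay counts 3′ ends, the letters of the last 500 bases of each transcript were compared in windows of 90 bases. None of the end windows of Ifi204 and Ifi207 occurred in a transcript of another gene. Ifi204 was among the genes whose transcripts held end windows of Mndal. Ifi211 shared 59.4% of its windows with Ifi205 or Mndal, Ifi209 shared 37.1% with Ifi214, and Ifi205 shared 29.7% with Ifi211 or Mndal. The other members shared from 1.05% for Ifi203 to 12.1% for Ifi206. Counts of Ifi205, Ifi209 and Ifi211 are therefore the least certain in their assignment to 1 gene.

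RefSeq promoters of GRCm38.p6, from 250 bases before to 50 bases after each start, were searched for the letters GAAANNGAAA, the core of an interferon-stimulated response element, on both strands (TTTCNNTTTC on the reverse). Of the 9 members, 8 had an entry, and 7 of those 8 held a match, against 3.44% of all 32851 promoters and 3.99% of 27025 genes. The gamma-activated site TTCNNNGAA, which reads the same on both strands and can overlap the first motif by its shared GAA or TTC, was in 0 of 8 members, against 8.30% of all promoters. The windows below show the match in capitals with its flanks, 5′ to 3′ on the gene's strand, because the members share not only the motif but letters around it. The motif began 134 bases before the RefSeq start in Ifi205, 73 before it in Ifi213 and from 35 to 41 before it in Ifi203, Mndal, Ifi211, Ifi206 and Ifi207.
Ifi206, chr1:173491329-173491378, minus strand: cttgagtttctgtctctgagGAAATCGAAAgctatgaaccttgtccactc
Ifi213, chr1:173599316-173599365, minus strand: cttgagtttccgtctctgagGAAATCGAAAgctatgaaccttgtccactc
Ifi207, chr1:173741821-173741870, minus strand: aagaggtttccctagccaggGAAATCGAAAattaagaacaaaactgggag
Mndal, chr1:173880194-173880243, minus strand: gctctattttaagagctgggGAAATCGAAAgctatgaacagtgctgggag
Ifi211, chr1:173913054-173913103, minus strand: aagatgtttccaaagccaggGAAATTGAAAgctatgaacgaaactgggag
Ifi203, chr1:173942498-173942547, minus strand: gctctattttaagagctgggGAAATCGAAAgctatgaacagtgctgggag
Ifi205, chr1:174031860-174031909, minus strand: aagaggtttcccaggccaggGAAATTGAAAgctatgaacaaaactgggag
Ifi209, chr1:173630761-173630809, plus strand: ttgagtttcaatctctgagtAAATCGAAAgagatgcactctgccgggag

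Ifi209 had no full match, and the capitals in its line mark the 9 letters AAATCGAAA that it shares with 5 of the others. The form GAAATCGAAA stood in 16 of the 32851 promoters (0.0487%), and 5 of the 16 genes concerned were members: Ifi206, Ifi213, Ifi207, Mndal and Ifi203. A further 2 of the 16 were Ifi208 and Ifi214, genes of the same protein family inside the cluster that are not among the 9. The form GAAATTGAAA, found in Ifi205 and Ifi211, stood in 38 promoters (0.116%). The printed windows of Ifi203 and Mndal had the same letters throughout. Mndal and Ifi205 also held a second match on the opposite strand. A match is a description of these letters and not a bound site.

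The 4 libraries held 6122 (KO tumour), 4798 (WT tumour), 7789 (KO spleen) and 8107 (WT spleen) barcodes with 46499361 to 63560706 unique molecular identifiers (UMIs, one per captured molecule). After filters on genes, UMIs, mitochondrial share and doublets, 3844 to 7017 cells remained per library, with 4.35% to 10.5% of them in no lineage. A further 428 (KO tumour), 241 (WT tumour), 112 (KO spleen) and 110 (WT spleen) cells had a lineage but no single class within it. The mitochondrial limit removed more barcodes from the KO tumour library (1462) than from the WT tumour library (752). From 3.39% to 5.75% of cells lay within 0.05 of the lead in marker score that decided their lineage, and 6 to 22 barcodes were shared by a pair of libraries. Ndufa4 was at 6.67 CPM (UMIs per 1000000 UMIs of the class) in KO and 284 CPM in WT tumour phagocytes, and at 0.899 CPM in KO and 275 CPM in WT spleen phagocytes, as the labels say. The spleen sort on CD11b left NK cells and B cells as well as myeloid cells, and both sorts were checked against the marker lists of each class.

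The members fell into different patterns over cell classes. Across the 42 class and library combinations with at least 50 cells, the family sum ranged from 22.1 CPM in immature neutrophils of KO spleen to 3522 CPM in classical monocytes of KO tumour, with a median of 1050 CPM. Ifi204, Ifi206, Ifi207, Ifi209, Ifi211 and Ifi213 each had their highest level in classical monocytes of KO tumour. Ifi203 was highest in B cells of KO spleen (540.4 CPM), Mndal in B cells of KO tumour (562 CPM), and Ifi205 in type 1 dendritic cells of KO tumour (614 CPM).

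**Figure D1:**
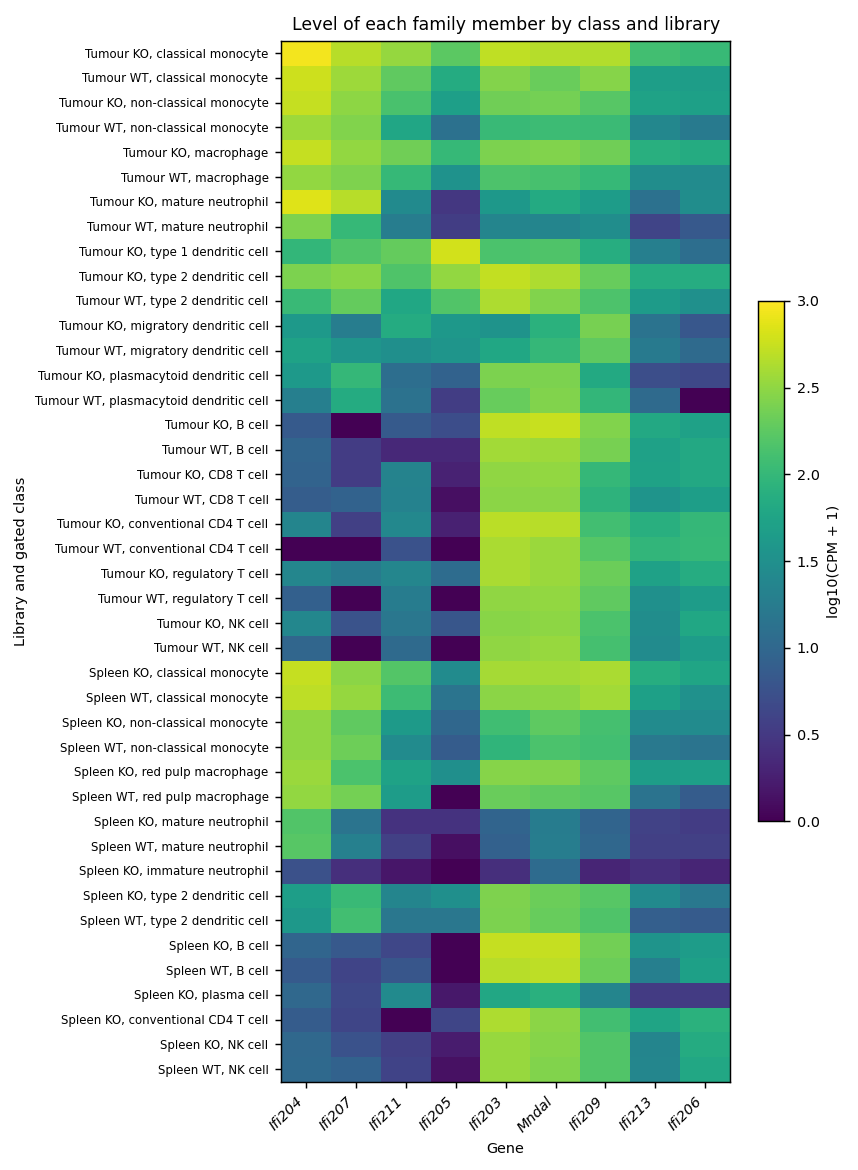
Level of each member (columns) in each class and library with at least 50 cells (rows), as log10 of CPM plus 1, with a lighter colour for a higher level. Ifi203, Mndal and Ifi209 are light in lymphoid and in most myeloid rows, while Ifi204, Ifi207, Ifi211 and Ifi205 lie below 1 on this scale in B cells and are light in phagocytes or dendritic cells.

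In B cells, Ifi203 stood at 514 CPM in KO and 381 CPM in WT tumours, and at 540.4 CPM in KO and 479 CPM in WT spleens. Mndal, named for its likeness to human MNDA, stood beside it at 562 CPM in KO and 363 CPM in WT tumours. Ifi204 in the same cells gave 3 UMIs in KO and 7 UMIs in WT tumours, and Ifi205 gave 0 UMIs in both spleens, which allows up to 3 UMIs of 1513789 in KO and of 1299408 in WT spleen. Ifi204 and Ifi205 were thus at or near the floor in the cells in which Ifi203 and Mndal stood highest. Over the 42 combinations, log2(CPM + 1) of Ifi203 and Mndal had Pearson r = 0.979, that of Ifi204 and Ifi207 r = 0.909, and that of Ifi206 and Ifi213 r = 0.881. The r of Ifi204 with Mndal was −0.20 and with Ifi203 −0.16. Points of the same library share its depth, and r is given as a description. Ifi203 and Mndal also have overlapping bodies and the same printed promoter window. The body of Mndal covers Ifi211 as well, and the r of Ifi211 with Mndal was 0.21.

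Ifi205, which has been tied to expression of the inflammasome adaptor Asc in mouse macrophages, had its own distribution. It made up 42.2% of the family's UMIs in type 1 dendritic cells of KO tumour. Type 1 dendritic cells of WT tumour showed 570.1 CPM, with 45 cells, fewer than the minimum of 50, and those of KO and WT spleen 377 and 489 CPM, with 43 and 48 cells; these classes were given after their values were seen. Type 2 dendritic cells followed with 329.6 CPM in KO and 154 CPM in WT tumour. In lymphocytes of the tumour it stayed at 10.5 CPM or lower in KO and 1.22 CPM or lower in WT.

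In the KO tumour the family sum was highest in classical monocytes (3522 CPM), type 2 dendritic cells (2323 CPM), macrophages (2093 CPM) and non-classical monocytes (1749 CPM), in that order. B cells (1478 CPM), type 1 dendritic cells (1455 CPM) and mature neutrophils (1398 CPM) followed. T and NK cells stood below these, and migratory dendritic cells were lower than CD8 T cells and NK cells. The counting intervals of the B cells, type 1 dendritic cells and neutrophils overlapped. In the WT tumour the order began with the same 3 classes at 2063, 1432 and 1153 CPM, and mature neutrophils were last at 469 CPM. The classes in 4th to 6th place in WT tumours, conventional CD4 T cells, B cells and non-classical monocytes, did not differ beyond their intervals.

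**Figure D2:**
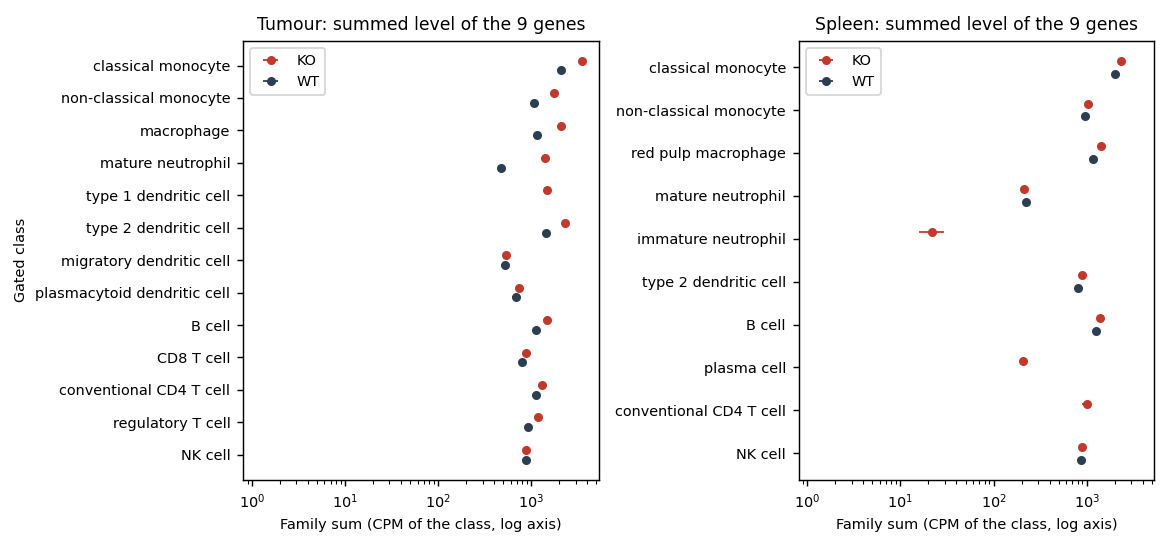
Sum of the 9 members in CPM of the class total (log axis) for each gated class in tumour and spleen, KO and WT points with exact Poisson 95% intervals. KO stands above WT in tumour monocytes, macrophages, type 2 dendritic cells and neutrophils, and the points nearly coincide in NK cells of both organs.

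Mononuclear phagocytes were all cells of the monocyte and macrophage lineage, including cells tied between its classes. In those of the tumour nearly the whole family was higher in KO than in WT. The class held 912 KO cells with a median of 13504.5 UMIs and 1242 WT cells with 13670.5. The family sum was 2842 CPM in KO (37914 UMIs) and 1516.5 CPM in WT (29248 UMIs), a log2 ratio of KO to WT of 0.91, with a 95% counting interval of 0.88 to 0.93. With a call defined as at least 1.5-fold apart and at least 20 UMIs over both libraries, 8 of 9 members were higher in KO and 0 were lower, against 10.8% of 12103 genes higher and 13.6% lower. The median log2 ratio was 1.03 over the members and −0.019 over all genes.

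Ifi205, Ifi213 and Ifi206 stood furthest apart in these cells. Ifi205 was at 134 CPM (1784 UMIs) in KO and 43.9 CPM (846 UMIs) in WT, a log2 ratio of 1.61 [1.49 to 1.73]. Ifi213 was at 102 CPM in KO and 35.5 CPM in WT, a log2 ratio of 1.53 [1.40 to 1.66], and Ifi206 at 89.4 CPM in KO and 34.2 CPM in WT, 1.39 [1.25 to 1.53]. The intervals of Ifi205 and Ifi213 overlap, as do those of Ifi213 and Ifi206.

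The members with a broad distribution came next. Mndal was at 370.3 CPM in KO and 163 CPM in WT, a log2 ratio of 1.18 [1.12 to 1.25]. Ifi203 was at 391.5 CPM in KO and 193 CPM in WT, 1.02 [0.96 to 1.08], and Ifi209 at 346 CPM in KO and 172 CPM in WT, 1.01 [0.94 to 1.07]. Ifi211, with 272 CPM in KO and 133 CPM in WT, had a log2 ratio of 1.03 [0.96 to 1.11]. All 4 were close to 2-fold higher in KO.

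The DNA sensor Ifi204 and its companion in class pattern, Ifi207, a gene of the same cluster that has been placed in the STING pathway in mice, differed least between genotypes. Ifi204 had 729 CPM (9730 UMIs) in KO and 435 CPM (8399 UMIs) in WT, a log2 ratio of 0.74 [0.70 to 0.79]. Ifi207 had 407 CPM (5430 UMIs) in KO and 306 CPM (5903 UMIs) in WT, 0.41 [0.36 to 0.46], and was the 1 member below the 1.5-fold limit. Both intervals lie wholly below those of the other 7 members.

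**Figure D3:**
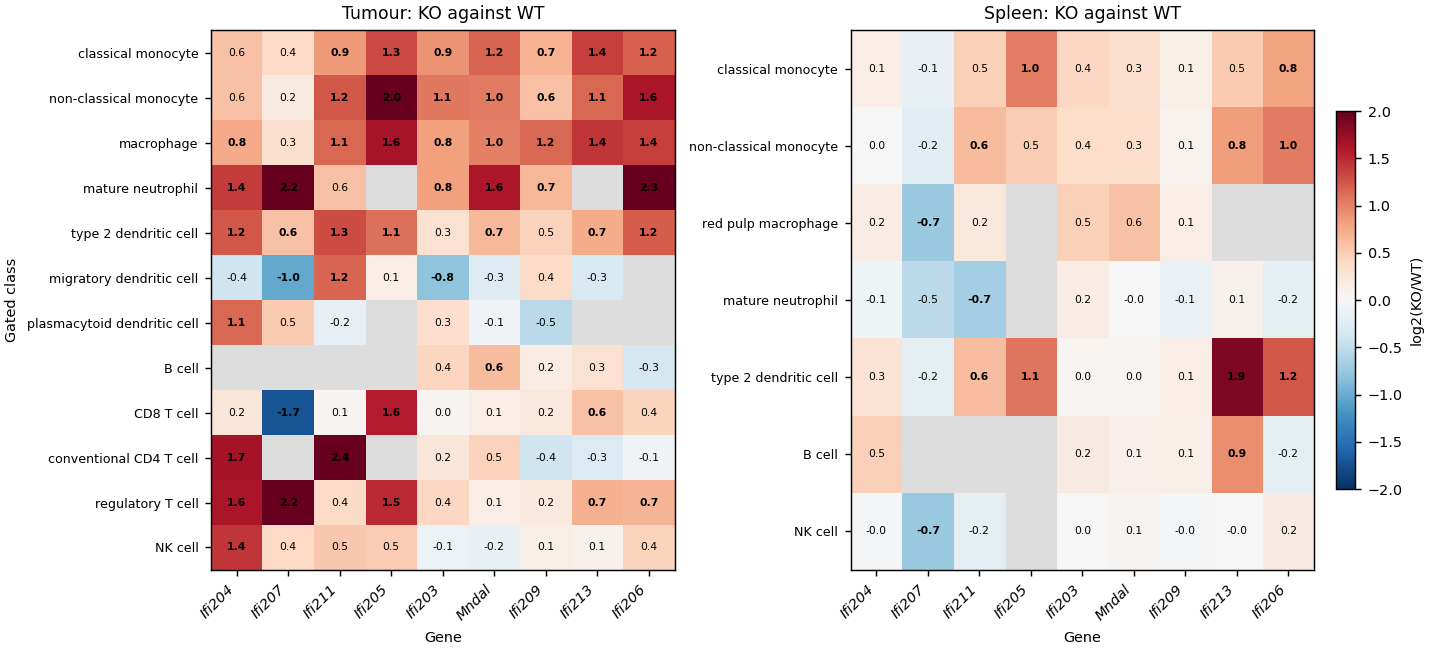
Log2 ratio of KO to WT for each member (columns) in each class (rows) in tumour and spleen, bold where at least 1.5-fold apart, grey where fewer than 20 UMIs were counted over both libraries. Tumour monocytes and macrophages are red in every column with Ifi207 the palest, and the Ifi207 column of the spleen is blue in each class measured.

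In each class inside the phagocytes Ifi207 had the smallest ratio and Ifi204 the next, and the order of the others shifted. Ifi205, Ifi213 and Ifi206 led in classical monocytes and macrophages. In non-classical monocytes Ifi211 (1.24) stood above Ifi213 (1.14), and Ifi209 (0.59) was level with Ifi204 (0.58). In classical monocytes (454 KO and 452 WT cells) the sum was 3522 CPM in KO and 2063 CPM in WT, a log2 ratio of 0.77 [0.74 to 0.80], and 7 of 9 members were higher and 0 lower, against 13.5% and 10.2% of all genes. Ifi204 (881 CPM in KO, 589 in WT) and Ifi207 (476 in KO, 364.5 in WT) missed the limit at 0.58 and 0.38, and Ifi209 (0.69) lost its call at 0.51 when cells were thinned to 1000 UMIs. In macrophages (231 KO and 534 WT cells) the sum was 2093 CPM in KO and 1153 CPM in WT, 0.86 [0.82 to 0.90], and 8 of 9 were higher and 0 lower against 9.96% and 14.1% of all genes, with Ifi207 at 0.33. In non-classical monocytes (134 KO and 149 WT cells) 7 of 9 were higher and 0 lower against 9.31% and 11.2% of all genes, with Ifi204 at 0.58 and Ifi207 at 0.19, and 2 of the 7, Ifi203 and Ifi211, lost their calls when cells were thinned to 1000 UMIs (0.42 and 0.54). Classical monocytes, the class with the most family UMIs, made up 49.8% of phagocytes in KO and 36.4% in WT tumours, and macrophages 25.3% in KO and 43.0% in WT. With the KO classes weighted to the WT mix, the phagocyte ratio of the sum was 0.82 on the log2 scale.

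Transcripts of other cells were also counted in these phagocytes. The T cell marker list summed to 58.2 CPM in KO and 22.1 CPM in WT, and the NK list to 24.6 CPM in KO and 3.99 CPM in WT, with none of the 8 markers of either list at 0 in either library. The median phagocyte held 1 T cell marker UMI in KO and 0 in WT. The ratio of the family sum in phagocytes with no UMI of either list was 0.96 on the log2 scale, against 0.91 in all phagocytes. The part of T and NK cell transcripts in the result was not tested. The mature neutrophil list ran the other way, with 204 CPM in KO and 286 CPM in WT, and its part in the result was not tested.

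The members detected per cell were counted next. With each cell thinned to 2000 UMIs (38 KO and 42 WT cells were shallower and left out), tumour phagocytes averaged 5.51 family UMIs in KO and 3.15 in WT. At least 3 members were detected in 57.6% of KO and 30.9% of WT cells, and no member in 8.35% of KO and 22.0% of WT cells. Without thinning, 98.0% of KO and 94.0% of WT phagocytes had a family UMI. As a background, immature neutrophils of KO spleen, with a median of 11499 UMIs, had a family UMI in 23.8% of 147 cells unthinned and in 4.76% when thinned to 1000 UMIs, at which depth the tumour phagocytes showed 80.4% in KO and 59.7% in WT. In classical monocytes the mean was 7.06 family UMIs in KO and 4.25 in WT at 2000 UMIs, and 71.6% of KO and 41.8% of WT cells had at least 3 members. In non-classical monocytes the mean was 3.14 in KO and 2.30 in WT, and 29.3% of KO and 22.1% of WT cells had at least 3 members, but cells with no member were 19.5% in KO and 17.2% in WT.

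In spleen phagocytes (1348 KO cells with a median of 9408.5 UMIs and 2687 WT cells with 10922) the family sum was 1966 CPM in KO and 1655 CPM in WT, a log2 ratio of 0.25 [0.23 to 0.27]. Of the 9 members 3 were higher in KO and 0 lower, against 5.06% of 12239 genes higher and 4.62% lower, and the member median was 0.47 against −0.0082 over all genes. The 3 were the ones that led in the tumour. Ifi205 was at 23.7 CPM in KO and 10.8 CPM in WT, 1.14 [0.90 to 1.37], and Ifi206 at 48.1 CPM in KO and 25.7 CPM in WT, 0.91 [0.75 to 1.06]. Ifi213 was at 59.8 CPM in KO and 38.1 CPM in WT, 0.65 [0.51 to 0.79], and lost its call with doublets kept, with thinned cells and with the KO classes weighted to the WT mix, where it was lowest at 0.56.

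The other members of spleen phagocytes were closer to equal. Ifi211 had a log2 ratio of 0.55 [0.46 to 0.65], Ifi203 of 0.47 [0.41 to 0.53] and Mndal of 0.36 [0.31 to 0.42]. Ifi209 was at 328 CPM in KO and 290.1 CPM in WT (0.18 [0.12 to 0.23]), and Ifi204 at 479 CPM in KO and 433 CPM in WT (0.14 [0.10 to 0.19]). Ifi207 was lower in KO, with 266 CPM against 294 CPM in WT, a log2 ratio of −0.14 [−0.20 to −0.08]. Ifi207 had the smallest ratio in phagocytes of both organs. Ifi204 came next in the tumour, and in the spleen its interval overlaps that of Ifi209. NK markers summed to 84.6 CPM in KO and 44.7 CPM in WT spleen phagocytes, and the sum ratio without cells holding T or NK marker UMIs was 0.21.

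Over all 6 spleen classes in which Ifi207 reached 20 UMIs, its log2 ratio was negative, from −0.74 to −0.14. The sign did not hold in all of them: in neutrophils it was 0.14 with equal weight for each cell and 0.10 with thinned cells, against −0.53, and in classical monocytes it was 0.022 with thinned cells, against −0.14. It passed the 1.5-fold limit in 2 of them. In NK cells it was at 4.65 CPM (47 UMIs) in KO and 7.79 CPM (41 UMIs) in WT, and in red pulp macrophages at 140.2 CPM (46 UMIs) in KO and 235 CPM (73 UMIs) in WT. These were the 1 call among 8 members in NK cells (3.49% of all genes higher, 5.27% lower) and the 1 among 6 in red pulp macrophages (14% higher, 12.4% lower). No other member had a negative ratio in every spleen class measured. The call in NK cells was lost with equal weight for each cell and with thinned cells, and the call in red pulp macrophages with a mitochondrial limit of 20% and with none.

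Single classes of the spleen gave the following counts. Classical monocytes had 2 of 9 members higher in KO and 0 lower (4.01% and 5.27% of all genes), Ifi205 at 26.8 CPM in KO and 13.2 CPM in WT and Ifi206 at 56.6 CPM in KO and 32.3 CPM in WT. Non-classical monocytes had 3 of 9 higher and 0 lower (4.89% and 4.91% of all genes), which were Ifi206, Ifi211 and Ifi213, and type 2 dendritic cells had 4 of 9 higher and 0 lower (6.44% and 8.58% of all genes), which were Ifi205, Ifi206, Ifi211 and Ifi213. Ifi211 lost its call in both classes with doublets kept, and in non-classical monocytes also with equal weight for each cell, with lowest values of 0.56 there and 0.58 in type 2 dendritic cells. Over the whole dendritic lineage of the spleen 2 of 9 were higher and 0 lower (5.89% and 6.13% of all genes), Ifi206 and Ifi213. The largest of these ratios was that of Ifi213 in type 2 dendritic cells, with 26.1 CPM (32 UMIs) in KO and 7.20 CPM (15 UMIs) in WT. B cells had 1 of 6 higher and 0 lower (6.91% and 8.17% of all genes), Ifi213 at 35.0 CPM in KO and 18.5 CPM in WT, and mature neutrophils had 0 of 8 higher and 1 lower (16.3% of all genes higher, 11% lower), Ifi211 with 10 UMIs in KO and 17 in WT. Ifi203, Ifi204, Ifi209 and Mndal were not called in any of the 7 spleen classes measured.

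Tumour neutrophils (121 KO and 893 WT cells) had the largest ratio of the family sum, 1398 CPM in KO and 469 CPM in WT, 1.58 [1.44 to 1.71] on the log2 scale. In this class 32.8% of all genes were higher and 13% lower in KO, the median of all genes was 0.24, and 6 of 7 measured members were higher. Ifi207 was at 474 CPM (232 UMIs) in KO and 101 CPM (326 UMIs) in WT, 2.23 [1.98 to 2.47], and Ifi204 at 703 CPM (344 UMIs) in KO and 265 CPM (853 UMIs) in WT, 1.41. These 2 genes made up most of the family's UMIs in both libraries. Mndal, with 33 UMIs in KO and 71 in WT, was called at 1.61 and was at 0 when cells were thinned to 1000 UMIs, and Ifi203 and Ifi209 lost their calls in 3 alternatives each. Ifi206 rested on 14 UMIs in KO and 19 in WT.

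Ifi207, the member with the smallest ratio in tumour phagocytes, was thus more than 4-fold higher in KO tumour neutrophils, and the difference between the classes was not tested. Among KO neutrophils of the tumour, the neutrophil marker list was at 48758 CPM against 65566 CPM in WT. The lists of other cells were higher in KO: classical monocyte markers at 1153 CPM in KO and 652 CPM in WT, macrophage markers at 499 CPM in KO and 228 CPM in WT, T cell markers at 172 CPM in KO and 52.3 CPM in WT, and NK markers at 87.9 CPM in KO and 11.5 CPM in WT. The median neutrophil held 1 classical monocyte marker UMI in KO and 0 in WT, and 0 macrophage marker UMIs in both. Their part in the neutrophil result was not tested. In spleen neutrophils (1607 KO and 2268 WT cells) the family sum was 210.2 CPM in KO and 225 CPM in WT, with a log2 ratio of −0.10. At 2000 UMIs per cell, no member was detected in 32.2% of KO and 70.3% of WT tumour neutrophils, and in 69.8% of KO and 73.0% of WT spleen neutrophils.

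The dendritic classes of the tumour differed from one another. In type 2 dendritic cells (89 KO and 97 WT cells) the sum was 2323 CPM in KO and 1432 CPM in WT, 0.70 [0.63 to 0.77], and 7 of 9 members were higher and 0 lower, against 9.2% and 11.5% of all genes. Ifi211 was at 147 CPM in KO and 59.7 CPM in WT (1.30), Ifi204 at 256 CPM in KO and 108 CPM in WT (1.24), and Ifi206 at 71.3 CPM in KO and 30.8 CPM in WT (1.21). With cells thinned to 1000 UMIs the ratio of the sum was 0.53, below the 1.5-fold limit. Ifi205 was called at 1.10 and stood at −0.10 with cells thinned to 1000 UMIs, and the calls of Ifi207 and Mndal were lost in 5 alternatives and in 1. In migratory dendritic cells (87 KO and 64 WT cells) the sum was nearly equal, 537 CPM in KO and 518 CPM in WT (0.050 on the log2 scale, and 0.54 with equal weight for each cell), with 1 of 8 members higher and 2 lower against 11.5% and 11% of all genes. There Ifi211 was higher (1.16), Ifi207 was lower at 17.5 CPM in KO and 35.4 CPM in WT (−1.02), and Ifi203 was lower at 34.2 CPM in KO and 60.0 CPM in WT (−0.81). With equal weight for each cell Ifi203 was at −0.22. In plasmacytoid dendritic cells (89 KO and 70 WT cells) 1 of 6 members was higher and 0 lower, against 10.6% and 10.4% of all genes, Ifi204 at 41.2 CPM in KO and 18.7 CPM in WT. Over the whole dendritic lineage 2 of 9, Ifi204 and Ifi206, were higher and 0 lower, against 8.43% and 9.03% of all genes, and Ifi204 was not called with doublets kept.

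CD8 T cells and NK cells of the tumour held the family sum at nearly equal levels in both genotypes. In CD8 T cells (1248 KO and 442 WT cells) the sum was 887 CPM in KO and 803 CPM in WT, 0.14 [0.10 to 0.19], and the ratio was 0.038 with thinned cells. Mndal (327 CPM in KO, 299 in WT) and Ifi203 (313 CPM in KO, 302 in WT) supplied most of its UMIs. Of 9 members 2 were higher and 1 lower, against 7.16% and 8.23% of all genes. Ifi213 was higher, at 52.6 CPM in KO and 35.0 CPM in WT. Ifi205 was higher on 18 UMIs in KO and 2 in WT, a log2 ratio of 1.57 in CPM. Ifi207 was lower, with 45 UMIs (2.38 CPM) in KO and 49 UMIs (7.83 CPM) in WT. The Ifi207 call (−1.72) was lost at −0.51 with a lineage lead of 0.3, and Ifi213 lost its call in 4 alternatives. In NK cells (669 KO and 125 WT cells) the sum was 873 CPM in each genotype, and 1 of 9 members was higher and 0 lower, against 9.76% and 12.7% of all genes. This was Ifi204, at 23.4 CPM (115 UMIs) in KO and 8.67 CPM (7 UMIs) in WT, a log2 ratio of 1.43.

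The remaining lymphocyte classes were small. In regulatory T cells (183 KO and 98 WT cells) 5 of 9 members were higher in KO and 0 lower, against 8.66% and 12.7% of all genes. In conventional CD4 T cells (131 KO and 69 WT cells) 2 of 7 were higher and 0 lower, against 20.2% and 13.2%. Ifi207 had 32 UMIs in KO and 0 in WT regulatory T cells, 4.52-fold higher with the WT class set to a floor of 3 UMIs. Ifi205 had 20 UMIs in KO and 0 in WT there, and Ifi204 had 25 UMIs in KO and 0 in WT conventional CD4 T cells. With the same floor they were 2.82-fold and 3.18-fold higher. The floor is a fixed setting and not the lower end of a counting interval. Macrophage markers summed to 140.3 CPM in KO and 65.5 CPM in WT regulatory T cells, and to 77.2 CPM in KO and 55.9 CPM in WT conventional CD4 T cells, and their part in these low levels was not tested. The family sum had a log2 ratio of 0.36 [0.24 to 0.48] in regulatory T cells and 0.23 [0.077 to 0.38] in conventional CD4 T cells. In B cells (74 KO and 146 WT cells) the sum was at 0.40 [0.26 to 0.55], and 1 of 5 members was higher and 0 lower, against 10.4% and 17.1% of all genes. This was Mndal, at 562 CPM in KO and 363 CPM in WT (0.63), and the call was lost without the mitochondrial limit, with a limit of 20% and with a lineage lead of 0.3.

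Counted over the 12 tumour classes with enough cells, Ifi204 was higher in KO in 7 of 11 classes measured, Ifi205 in 6 of 8, Ifi206 and Ifi213 in 6 of 10 each, Ifi211 in 6 of 11 and Mndal in 6 of 12. Ifi203 and Ifi209 were higher in 4 of 12 each. Ifi207 was higher in 3 of 10 and lower in 2, and Ifi203 was lower in 1. No other member was called lower in any tumour class. Over all genes, 7.16% to 32.8% were called higher and 8.23% to 17.1% lower in these classes.

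Between organs the members split in another way. In WT classical monocytes (452 tumour and 1312 spleen cells) the family sum was 2063 CPM in tumour and 2024 CPM in spleen, a log2 ratio of 0.027 [−0.0014 to 0.056]. Over all genes of this comparison 14.1% were higher and 45% lower in the tumour, with a median of −0.48, and scaling to that median put the sum at 0.50. Ifi205 was at 69.0 CPM in tumour and 13.2 CPM in spleen (2.39) and Ifi211 at 183 CPM in tumour and 112 CPM in spleen (0.71), the 2 of 9 members called higher. Mndal was at 208 CPM in tumour and 310 CPM in spleen (−0.57), within 1.5-fold. The organs were sorted differently, with CD11b used in the spleen alone.

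In KO classical monocytes (454 tumour and 733 spleen cells) the sum was 3522 CPM in tumour and 2359 CPM in spleen, 0.58 on the log2 scale, and 6 of 9 members were higher in the tumour and 0 lower, against 13.9% and 38.9% of all genes. Of the 6, Ifi206 (0.90) and Ifi207 (0.65) lost their calls with thinned cells, at 0.43 and 0.51. Ifi205 was at 173 CPM in tumour and 26.8 CPM in spleen (2.69). In type 2 dendritic cells, 8 of 9 members were higher in the KO tumour (16.2% of all genes higher, 37.3% lower) and 7 of 9 in the WT tumour (12.4% and 37%), where Ifi207 lost its call at 0.51 with a lineage lead of 0.3. The largest ratio in that class was again Ifi205, with 329.6 CPM in tumour and 30.2 CPM in spleen of KO mice (3.45) and 154 CPM in tumour and 14.4 CPM in spleen of WT mice (3.42). Ifi205 was called higher in the tumour in all 4 KO and all 3 WT classes where it was measured, and Ifi211 in all 6 KO and all 5 WT classes. Among all genes, 10.8% to 32.2% were called higher in these KO classes and 11.8% to 24.3% in the WT classes. Mndal was called higher in 3 of 7 KO classes and in 0 of 6 WT classes, and 2 of the 3 calls were lost: neutrophils stood at 0.36 with thinned cells, against 1.95, and conventional CD4 T cells at 0.55 with doublets kept, against 0.67.

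In neutrophils, 8 of 8 measured members were higher in the KO tumour than in the KO spleen, where 32.2% of all genes were higher and 31.4% lower. In WT neutrophils 6 of 8 were higher in the tumour, where 24.3% were higher and 41.9% lower, and Ifi206 (1.10) lost its call with doublets kept and with a lineage lead of 0.3, where it was lowest at 0.16. Ifi207 was at 474 CPM in tumour and 13.3 CPM in spleen of KO mice (5.16) and at 101 CPM in tumour and 19.1 CPM in spleen of WT mice (2.41). In NK cells the sums were 873 CPM in tumour and 889 CPM in spleen of KO mice, and 873 CPM in tumour and 877 CPM in spleen of WT mice. The median log2 ratio of all genes was −0.32 in KO and −0.26 in WT. Scaling to it put the sums at 0.30 and 0.25. Within the sums nearly equal in CPM, 3 of 9 members were higher in the KO tumour and 0 lower (14.7% and 35.7% of all genes), Ifi204, Ifi205 and Ifi211. In WT NK cells 1 of 8 was higher in the tumour, Ifi211, and 1 lower, Ifi207 (11.8% and 31.9% of all genes), on 8 and 0 UMIs in the tumour library. Non-classical monocytes had 7 of 9 members higher in the KO tumour (10.8% of all genes higher, 27.2% lower) and 3 of 9 in the WT tumour (12.4% and 28.5%). Ifi207 lost its call there in KO with thinned cells (0.57), and Ifi213 in WT with a lineage lead of 0.3 (0.56). B cells had 1 of 5 members higher in the tumour in each genotype, Ifi213 (10.9% higher and 32.7% lower in KO, 12.1% and 27.9% in WT). Conventional CD4 T cells of KO mice had 3 of 7 higher (24% and 29.8%), and the dendritic lineage had 6 of 9 higher in KO (14.4% and 38.4%) and 5 of 9 in WT (12% and 39.2%). No member was called lower in these. The KO and WT organ comparisons share their libraries with the genotype comparisons above.

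Other genes of the pathway were counted in tumour phagocytes from fixed lists. In these cells 10.8% of all genes were higher and 13.6% lower in KO. Of 26 measured type I interferon genes, KO was higher for 23 and lower for 0. Their median log2 ratio was 1.05, and Ifi44 had the largest (13.4 CPM in KO, 3.47 CPM in WT, 1.95). Of 18 type II interferon genes 18 were higher, with a median of 2.21 and the guanylate binding protein Gbp2b at 40.6 CPM in KO and 2.28 CPM in WT. Among nucleic acid sensing genes 5 of 10 were higher, led by the nucleotide hydrolase Samhd1 (1425 CPM in KO, 409.7 CPM in WT). The family median of 1.03 stood beside that of the type I list. In spleen phagocytes, where 5.06% of all genes were higher and 4.62% lower, 10 of 26 type I genes were higher and 0 lower. Their median was 0.47, the same as the median of the family. Of 16 type II genes 5 were higher and 1 lower there, with a median of 0.41.

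In tumour migratory dendritic cells, where the family sum was nearly equal, 2 of 22 type I genes were higher and 8 lower in KO. The shares over all genes were 11.5% and 11%, and the type I median was −0.48. In tumour neutrophils 23 of 24 type I genes were higher and 1 lower, with a median of 1.14, against 32.8% higher and 13% lower of all genes and a median of 0.24. Family and type I medians were 0.21 and 0.50 in tumour CD8 T cells, 0.30 and 0.82 in B cells, and 0.39 and 0.43 in NK cells. Other genes of the same protein family were measured beside the 9 members: in tumour phagocytes Ifi208 was at 27.1 CPM in KO and 10.4 CPM in WT (1.38 [1.13 to 1.64]), Ifi214 at 19.9 CPM in KO and 13.8 CPM in WT (0.53), and Aim2 at 53.4 CPM in KO and 38.7 CPM in WT (0.47). Of these 3, Ifi208 alone passed the limit.

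**Figure D4:**
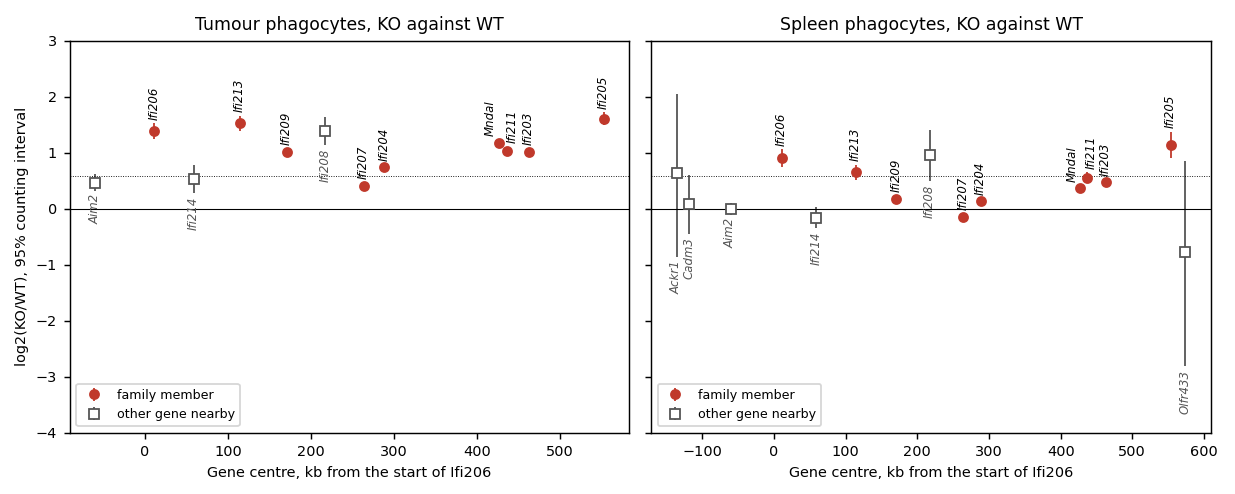
Log2 ratio of KO to WT with 95% counting intervals for members (circles) and other measured genes within 500 kb (squares) in phagocytes of tumour and spleen, by distance in kb of the gene centre from the start of Ifi206, with a dotted line at 1.5-fold. Ifi207 lies lowest among the members in both panels, its neighbour Ifi204 comes next in the tumour and overlaps Ifi209 in the spleen, and Ifi208 lies near Ifi206 and Ifi213.

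Position in the cluster was set beside these ratios. Ifi207 and Ifi204, the 2 members with the smallest ratios in tumour phagocytes, are adjacent among the measured genes, and Ifi206 and Ifi205, at the ends of the span, were among the 3 largest. Within 500 kb of the cluster 3 other genes were measured in tumour phagocytes, all of the same protein family. In spleen phagocytes 6 were measured, of which Ifi208 and Ackr1 were higher and the olfactory receptor gene Olfr433 was lower in KO, the last 2 on few UMIs and with intervals that include 0.

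The family was then set against the type I interferon list in single phagocytes. Tumour phagocytes of both genotypes, thinned to 2000 UMIs, were divided at the quartiles of their type I list UMIs, a list that holds no member of the family. Bins 1 to 4 took cells with up to 2, up to 5, up to 11 and more than 11 such UMIs. They are ranges of a count and not cell types, and 263 KO and 508 WT cells lay within 1 UMI of a division. The upper bins held more KO cells, 334 KO and 152 WT in the highest against 117 KO and 471 WT in the lowest. From the lowest to the highest bin the mean family UMIs per cell were 1.72, 2.90, 4.67 and 8.67 in KO cells and 1.41, 2.25, 4.07 and 8.90 in WT cells. The log2 ratios of KO to WT were 0.29 [0.050 to 0.52], 0.36 [0.19 to 0.54], 0.20 [0.082 to 0.32] and −0.038 [−0.13 to 0.056], beside means over all these cells of 5.51 family UMIs in KO and 3.15 in WT. The genotypes were not matched inside the bins. Mean type I list UMIs were 1.38, 4.03, 8.38 and 20.1 in KO and 1.12, 3.92, 7.98 and 23.7 in WT. The part of these differences in the ratios was not tested.

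**Figure D5:**
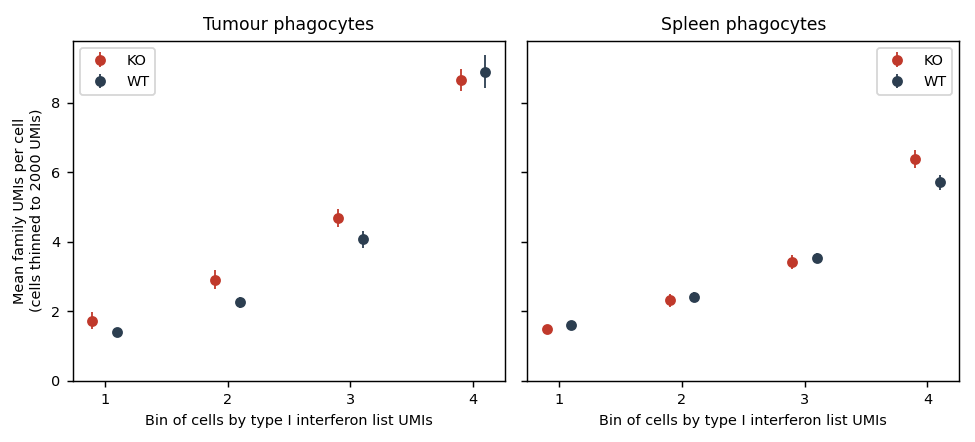
Mean family UMIs per phagocyte thinned to 2000 UMIs, by bin of type I interferon list UMIs, KO and WT points with exact Poisson 95% intervals in tumour and spleen. The bins were cut at the quartiles of each organ separately. The means climb from bin to bin in both genotypes, and in the tumour KO lies slightly above WT in bins 1 to 3 and at the same height in bin 4.

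Within bins the members kept different distances. Ifi204 was close to equal in each tumour bin, with log2 ratios of −0.041, 0.047, 0.13 and −0.16. Ifi205 stood at 1.27, 1.81, 1.21 and −0.20, the first on 6 UMIs in KO and 10 in WT, and Mndal at 0.98, 0.47, 0.50 and 0.22. The Ifi205 interval was above 0 in bins 2 and 3, and that of Mndal in bins 1 and 3. Spleen phagocytes were divided at their own quartiles, with up to 2, up to 4, up to 8 and more than 8 type I list UMIs. There the family sum had log2 ratios of −0.10, −0.069, −0.051 and 0.16 over the bins. Ifi207 was negative in all 4 of them, at −0.28, −0.37, −0.31 and −0.26.

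Among 8594 genes with a mean of at least 10 CPM, those with the class pattern most like the family sum over the 42 combinations were Llph (r = 0.882), Gbp3 (0.840), Parp14 (0.836), Mrpl52 (0.830) and Imp4 (0.819). For single members the nearest gene outside the family was Ifi208 for Ifi206 (r = 0.850), Tmem173, which encodes STING, for Ifi209 (0.856), Gpr35 for Ifi207 (0.930) and Cd300c2 for Ifi204 (0.895). The others were Tcof1 for Mndal (0.925), Mtap for Ifi203 (0.902), Anxa4 for Ifi211 (0.875), Slamf8 for Ifi205 (0.851) and Ms4a6b for Ifi213 (0.824). The points share libraries and depth, and these values are descriptions.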

How the data were processed

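The data are 10x Chromium 3′ v3.1 single-cell libraries. The authors deposited, per sample, raw UMI counts per gene and barcode, and per the file headers the matrices were written by Cell Ranger 6.0.0. The submitters' processing notes name Cell Ranger 3.1, Seurat 3.1 and 3.1.4, mm10 and GRCm38. What separated cells from empty droplets was not stated, so it is not given here. The members and lists were chosen with earlier results of these data known.

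Barcodes with at least 200 genes, 500 UMIs and at most 10% mitochondrial UMIs were kept. Doublets were removed per library as the top 0.8% per 1000 barcodes of a Scrublet-type score (2 simulated doublets per cell, 2000 genes, 30 components). Each cell was gated by 18 marker lists: at least 3 markers detected and a lead of 0.15 over other lineages; the names are marker gates, not clusters. UMIs were summed per class and library and scaled to the class total (CPM). Classes needed 50 cells in both libraries for a ratio. Log2 ratios have exact conditional binomial 95% intervals and levels exact Poisson intervals, which cover counting error only. A ratio against 0 UMIs used a floor of 3 counts per class. Calls required 1.5-fold and 20 UMIs over both libraries. The 9 members were named in every class; of other genes, the 3 of largest ratio per list, called neighbours within 500 kb and nearest class patterns could be named. In all, 23 KO to WT and 15 tumour to spleen comparisons were computed. Gene coordinates are from GENCODE vM21 (GRCm38), promoters from RefSeq (GRCm38.p6). Scripts used Python 3.11.15, numpy 2.4.6, scipy 1.17.1 and pandas 2.3.3, and were tested on simulated counts. Alternatives in limits, doublets, gates, weighting, thinning (seeded) and scaling are given at the end. A list of interferon signalling genes is not reported here.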

Additional observations from a re-analysis of the deposited data

How the results depend on the processing

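Of 3056 recomputed ratios, 2716 stayed within their counting interval, 337 moved outside it, and the other 3, all of called ratios, changed sign or reached 0: Ifi211 in spleen neutrophils (0.069 with equal weight for each cell), and, with cells thinned to 1000 UMIs, Mndal in tumour neutrophils (0) and Ifi205 in tumour type 2 dendritic cells (−0.10). Of 188 ratios not called, 75 changed sign in at least 1 alternative, among them Ifi204 and Mndal in tumour migratory dendritic cells (up to 0.62 and 0.55, against −0.39 and −0.26) and Ifi211 in tumour neutrophils (down to −0.29, against 0.58). Mitochondrial limits and the number of gate markers moved none outside its interval. The family sum of tumour phagocytes (0.91) was 0.88 with doublets kept, 0.86 with equal weight for each cell, 0.85 with thinned cells, 0.82 with the KO classes weighted to the WT mix and 0.96 without T and NK marker UMIs. That of spleen phagocytes (0.25) was 0.20, 0.28, 0.18 and 0.21 with doublets kept, thinned cells, the WT mix and no T and NK marker UMIs. That of CD8 T cells (0.14) was 0.038 with thinned cells. In the tumour, thinned cells also took the sum below 1.5-fold in type 2 dendritic cells (0.53, against 0.70) and non-classical monocytes (0.56, against 0.71). The WT tumour to spleen ratio in classical monocytes (0.027) was 0.059 with a lineage lead of 0.3, −0.0018 with equal weight and 0.50 scaled to the median ratio; the first 2 lie near 0 in either direction. At 2-fold, the members called were 7 of 9 in tumour phagocytes and 1 of 9 in spleen phagocytes, against 8 and 3 at 1.5-fold. The causes were not tested. Thinned classes with under 20 UMIs gave no value. No paired analysis was possible because each group is 1 pooled library. Leaving out a replicate was not possible for the same reason. Depth limits the members in neutrophils, B cells and small T cell classes, where a call can rest on 20 to 50 UMIs.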
